A study of Mus musculus with 2 samples.

Results

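The replication-dependent histone genes are the clustered genes whose symbols begin with Hist1h, Hist2h, Hist3h or Hist4h, and 67 of 21755 protein-coding genes on the autosomes and the X chromosome of the mouse annotation carry such a symbol. The rule reads the symbol and no measured value, although earlier results of these data were known when it was set. The members were divided into 6 H1, 18 H2A, 18 H2B, 12 H3 and 13 H4 genes. By cluster, 54 lie in Hist1 on chromosome 13, 10 in Hist2 on chromosome 3, 2 in Hist3 on chromosome 11 and 1 in Hist4 on chromosome 6. Accessibility was measured by DNase-seq, a method that digests nuclei with DNase I, an enzyme that cuts exposed chromatin, and sequences the ends. The tissue was gastrocnemius, a calf muscle, of female B6CASTF1/J mice, the F1 cross of C57BL/6J and CAST/EiJ, aged 2 months. The group held 2 libraries, replicates 1 and 2, which the labels give as separate biosamples with 1 donor identifier. The labels thus leave unclear whether 1 or 2 animals were used, so the spread between the libraries may be partly technical.

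These genes supply the core histones that package new DNA and the H1 linker histones that bind between nucleosomes. Their transcription is known to climb at S phase, when DNA is copied, and their messenger RNAs end in a conserved stem-loop instead of a poly(A) tail, a form processed with the U7 small nuclear RNA. H2A and H2B genes often stand head to head around a shared promoter, while the genes of variants such as H2A.Z and H3.3 lie elsewhere and are expressed outside S phase as well. Nuclei of muscle fibres are postmitotic, although other cells of the tissue can divide, and the question is which promoters of this S-phase family were accessible there.

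The promoter sequences of the genes that the results turn on are shown first. They are RefSeq sequences of GRCm38.p6, the build called mm10, and each gives the 250 bases before the RefSeq start, 5′ to 3′ in the direction of the gene. Capitals mark bases inside a deposited footprint, a short stretch of lowered cutting within accessible DNA, of both libraries. The first 5 come from strong members of the H1, H4, H2A and H3 classes and from a head-to-head pair, and the last 3 from members without a promoter peak in both libraries.
Hist1h1c: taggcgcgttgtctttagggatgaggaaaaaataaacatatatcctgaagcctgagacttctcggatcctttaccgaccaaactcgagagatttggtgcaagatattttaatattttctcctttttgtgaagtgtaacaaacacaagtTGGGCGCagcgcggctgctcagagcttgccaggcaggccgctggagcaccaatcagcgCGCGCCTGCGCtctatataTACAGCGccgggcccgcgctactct
Hist1h4c: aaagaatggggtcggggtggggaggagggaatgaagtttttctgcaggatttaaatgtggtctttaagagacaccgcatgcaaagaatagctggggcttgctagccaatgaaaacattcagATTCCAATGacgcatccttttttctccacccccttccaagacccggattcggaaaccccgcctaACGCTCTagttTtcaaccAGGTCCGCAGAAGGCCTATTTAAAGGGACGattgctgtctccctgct
Hist2h2aa2: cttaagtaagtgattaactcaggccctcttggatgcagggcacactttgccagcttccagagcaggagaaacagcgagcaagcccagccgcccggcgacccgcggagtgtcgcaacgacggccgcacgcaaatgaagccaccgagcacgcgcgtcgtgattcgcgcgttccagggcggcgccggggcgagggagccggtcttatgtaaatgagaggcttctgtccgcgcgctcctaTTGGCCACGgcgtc
Hist1h3e: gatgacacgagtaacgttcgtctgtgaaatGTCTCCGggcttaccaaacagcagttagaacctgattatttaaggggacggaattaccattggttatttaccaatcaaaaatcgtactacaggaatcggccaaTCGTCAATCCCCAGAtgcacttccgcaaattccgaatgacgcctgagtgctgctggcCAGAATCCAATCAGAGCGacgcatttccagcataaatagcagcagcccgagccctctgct
Hist1h2bj: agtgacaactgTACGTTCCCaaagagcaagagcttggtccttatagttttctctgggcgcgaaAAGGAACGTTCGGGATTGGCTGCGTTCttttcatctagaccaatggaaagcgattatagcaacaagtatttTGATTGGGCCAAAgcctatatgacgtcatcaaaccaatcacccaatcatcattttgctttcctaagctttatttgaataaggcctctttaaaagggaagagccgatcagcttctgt
Hist1h2ab: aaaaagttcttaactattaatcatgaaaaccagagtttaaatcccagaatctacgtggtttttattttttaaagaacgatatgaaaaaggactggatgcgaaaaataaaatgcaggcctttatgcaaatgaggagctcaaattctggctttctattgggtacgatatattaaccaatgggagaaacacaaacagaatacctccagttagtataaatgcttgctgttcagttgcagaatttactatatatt
Hist1h2ba: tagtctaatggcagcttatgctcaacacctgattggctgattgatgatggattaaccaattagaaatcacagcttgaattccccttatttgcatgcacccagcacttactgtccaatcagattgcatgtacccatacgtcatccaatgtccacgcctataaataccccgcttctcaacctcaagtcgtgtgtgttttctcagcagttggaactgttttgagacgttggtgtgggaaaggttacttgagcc
Hist1h1t: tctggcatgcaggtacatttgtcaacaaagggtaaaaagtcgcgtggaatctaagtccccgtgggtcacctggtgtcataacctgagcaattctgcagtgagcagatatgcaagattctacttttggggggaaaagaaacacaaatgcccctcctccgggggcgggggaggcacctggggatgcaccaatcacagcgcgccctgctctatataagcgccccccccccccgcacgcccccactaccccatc
They lie at chr13:23738557-23738806, plus strand for Hist1h1c, chr13:23698459-23698708, minus strand for Hist1h4c, chr3:96240375-96240624, minus strand for Hist2h2aa2, and chr13:23562386-23562635, minus strand for Hist1h3e. The others lie at chr13:22042948-22043197, plus strand for Hist1h2bj, chr13:23750838-23751087, plus strand for Hist1h2ab, chr13:23934157-23934406, minus strand for Hist1h2ba and chr13:23695561-23695810, plus strand for Hist1h1t. Capitals cover 47 bases in 4 runs in Hist1h4c, 49 bases in 3 runs in Hist1h2bj, 40 bases in 3 runs in Hist1h3e, 25 bases in 3 runs in Hist1h1c and 9 bases in 1 run in Hist2h2aa2. The RefSeq start of Hist2h2aa2 stands at -98 from its annotated start. Its strongest peak, chr3:96240221-96240400 in both libraries, overlaps only the last printed bases, so its capitals are not comparable with the others. The 3 promoters without a peak in both libraries hold no capital at all.

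Replicate 1 had 66984 peaks and 153010 footprints, and replicate 2 had 258342 peaks and 338761 footprints, so calls are given per library throughout. Sequencing depth is unknown. Skeletal muscle fibre markers such as Acta1 and Ckm carried a peak at the promoter in both libraries in 8 of 8 genes, fibroblast markers in 3 of 3 and endothelial markers in 3 of 4. The 3 satellite cell markers, the 4 macrophage markers, and the erythroid, lymphocyte and liver markers, 3 each, had it in none. In replicate 2 alone a peak was present at 3 satellite cell, 3 macrophage, 2 lymphocyte, 1 erythroid and 1 liver marker.

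Most histone genes had an accessible promoter, taken here as one with a peak in both libraries. A peak within 1 kb of an annotated start was present in both libraries at 50 of 67 histone genes (74.6%, 95% exact interval 62.5 to 84.5), against 60.7% of all protein-coding genes. Replicate 1 had a promoter peak at 50 histone genes (74.6%), against 61.3% of all protein-coding genes, and replicate 2 at 57 (85.1%), against 71.7%. The mean share over the libraries was 79.9% ± 7.39 (SD, n = 2). In replicate 2 alone a further 7 had a peak, in replicate 1 alone none had, and 10 had none in either library. The difference turned with the genes set beside them. Of the 64 histone promoters rich in CpG, 49 (76.6%) had a peak in both libraries, against 91.9% of all protein-coding genes with a CpG observed-to-expected ratio of at least 0.6. Of the 63 histone genes with 1 annotated start, 48 (76.2%) had one, against 30.7% of all protein-coding genes with 1 start. With both conditions the share over all protein-coding genes was 78.1%.

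Where a promoter peak was present, its median strength was lower at histone genes than over all genes. In replicate 1 it was not lower than over genes with 1 start, but lower than over those also rich in CpG. The deposited signal has no stated scale, so each peak was placed by its percentile among all peaks of its own library. Over genes with a peak in both libraries, the strongest promoter peak had a median percentile of 81.8 in replicate 1 and 93.7 in replicate 2 at histone genes, against 88.0 and 97.02 at all protein-coding genes. The median signal was 1.79 in replicate 1 and 2.79 in replicate 2 at histone genes, against 2.48 and 5.37 at all protein-coding genes. With 1 annotated start, the median percentiles were 81.8 in replicate 1 and 93.7 in replicate 2 at histone genes, against 81.7 and 95.4 at all protein-coding genes with 1 start. With a high CpG ratio they were 83.5 and 94.1 at histone genes, against 90.4 and 97.6 at all such genes. Over all protein-coding genes with both conditions they were 85.6 in replicate 1 and 96.6 in replicate 2, above these histone values. In bulk tissue, a peak open in fewer cells and a peak less open in each cell cannot be told apart. The order of the histone genes by signal was much alike in both libraries, with a Spearman rho of 0.899 across the 50 genes, against 0.964 across the 13205 protein-coding genes with a peak in both. This describes genes that share libraries and, in pairs, peaks.

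**Figure D1:**
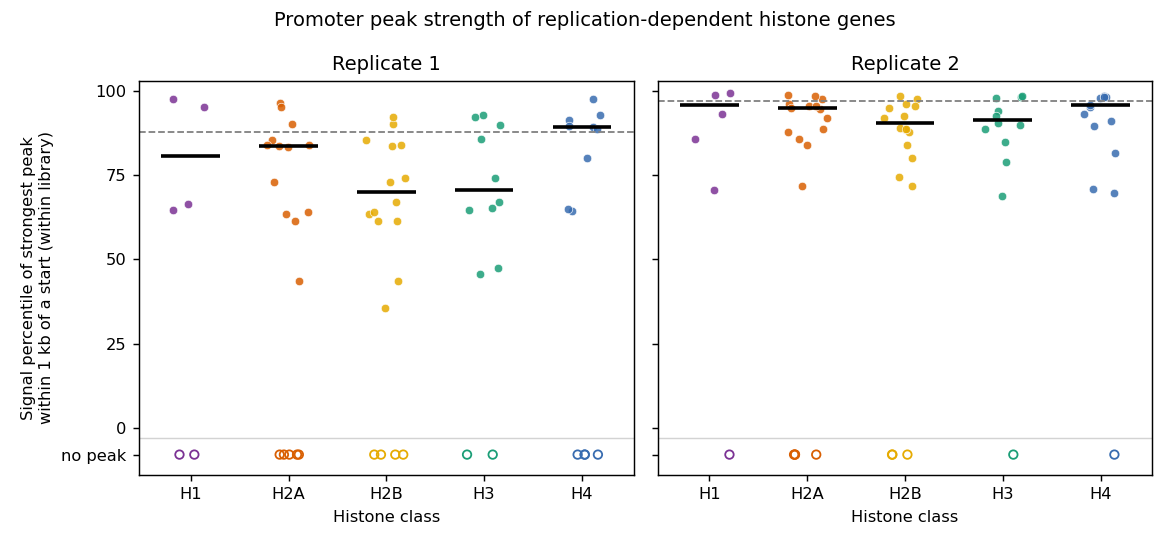
Percentile of the strongest peak within 1 kb of a start, among all peaks of the same library (vertical axis, 0 to 100), for the 67 histone genes by class, with replicate 1 left and replicate 2 right. Filled points are genes with a peak, open points below the grey line are genes without one, black bars are class medians over genes with a peak in both libraries, and the dashed line is the median of all protein-coding genes with a peak in both (88.0 and 97.02). The H4 median of 89.4 in replicate 1 is the one class median above the dashed line.

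All 5 classes held both accessible and inaccessible members. H3 genes had a peak in both libraries at 10 of 12, H2B genes at 14 of 18, H2A genes at 13 of 18, H4 genes at 9 of 13 and H1 genes at 4 of 6. In replicate 2 the counts were 11, 15, 14, 12 and 5 in the same order. The exact intervals of the classes overlap widely, for instance 51.6 to 97.9% for H3 and 38.6 to 90.9% for H4. They reflect counting error alone, and members that share a peak are not independent. Differences between classes were not tested. Median percentiles in replicate 1 were 89.4 for H4, 83.8 for H2A, 80.8 for H1, 70.6 for H3 and 70.1 for H2B. In replicate 2 they were 96.0 for H4, 95.04 for H2A, 96.0 for H1, 91.5 for H3 and 90.5 for H2B, so H3 and H2B held the lower places in both libraries.

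Among the linker histones, Hist1h1c, which encodes a widely expressed somatic H1, had the strongest peak of any member within 1 kb, with a signal of 6.36 in replicate 1 and 17.2 in replicate 2. These are percentiles 97.7 and 99.5. That peak lay downstream, with its midpoint 942.5 and 962.5 bases past the start. Within 250 bp of the start the strongest Hist1h1c peak had signals of 3.48 and 7.32, at percentiles 92.8 and 98.0. Hist1h1e, another somatic H1 gene, had 4.41 in replicate 1 and 10.1 in replicate 2, with midpoints at 17.5 and -2.5 bases from the start, and was the H1 gene with the strongest peak at the start itself. Hist1h1a followed at 1.06 and 2.63, and Hist1h1b had 0.615 and 1.26 within 250 bp of its start. Hist1h1t, the testis-specific H1, had no peak in replicate 1 and one of 0.633 in replicate 2, centred 539 bases into the gene. Its promoter therefore had no peak within 250 bp in either library.

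Hist1h1d had no peak within 1 kb of its start in either library, yet its annotated start lies 1828 bases before its coding sequence. Within 1 kb of its start codon a peak was present in both libraries. The strongest had a signal of 1.21 at percentile 71.2 in replicate 1 and of 2.21 at percentile 92.0 in replicate 2. They were not the same peak, with chr13:23556021-23556280 in replicate 1 and chr13:23554901-23555080 in replicate 2. The replicate 2 peak lies inside the RefSeq promoter window of the gene, chr13:23554782-23555081, and the replicate 1 peak lies past it. The call of this H1 gene within 1 kb thus turns on the start used, and its strongest peak differs between the libraries. Whether the libraries share a weaker peak there was not tested. Hist1h2be is the opposite case: 1 of its 3 annotated starts lies 35168 bases from its coding start, and its peaks there had signals of 0.937 and 1.63. At its start codon the signals were 0.796 and 1.40, so it was accessible by either reading.

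By the mean of the percentiles in both libraries, the leading H4 genes were Hist1h4c, Hist1h4a and Hist1h4h. In replicate 2 Hist2h4, at 8.24 within 1 kb, stood above the last 2. Hist1h4c had a signal of 6.14 in replicate 1 and 8.76 in replicate 2, or percentiles 97.5 and 98.4, in a peak centred at -46.5 and -36.5 bases from its start (negative is upstream). Hist1h4a had 3.50 and 7.69, and Hist1h4h 3.13 and 6.90. The stronger Hist1h4h peak of replicate 2 was centred 700.5 bases past the start, and within 250 bp that library gave 5.56. The Hist2h4 peak of replicate 2 was centred 920.5 bases past its start. Within 250 bp Hist2h4 had 4.37 in that library, below Hist1h4a and Hist1h4h. Of the other H4 genes, Hist1h4j, Hist1h4m and Hist1h4b, had a peak in replicate 2 alone, at 0.986, 0.616 and 0.644, and Hist1h4n in neither. H4 was thus the class with most members called in 1 library only.

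Of the H2A genes, the Hist2 copies Hist2h2aa2 and Hist2h2aa1 were strongest, at 5.07 and 4.50 in replicate 1 and 11.1 and 8.88 in replicate 2. Of the H3 genes, Hist1h3e had 2.83 in replicate 1 and 7.53 in replicate 2, centred at -61.5 bases from its start in both. Hist1h3a and Hist2h3b ranked higher within 1 kb, at 3.50 and 3.38 in replicate 1 and 7.69 and 8.74 in replicate 2, but through a neighbour's peak. The peak credited to Hist1h3a is that of Hist1h4a, and the one credited to Hist2h3b is that of Hist2h2bb. Within 250 bp of their own starts Hist1h3a had 0.585 and 0.644, at percentiles 38.1 and 71.0, and Hist2h3b had 1.20 and 3.23, at percentiles 71.0 and 94.6. By mean percentile the leading H2B genes were Hist2h2bb at 3.38 and 8.74, Hist1h2bj at 2.89 and 3.48 and Hist1h2bp at 2.15 and 4.37, while Hist1h2bf, at 1.96 and 6.24, was second in replicate 2.

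Because clustered genes lie close together, the count was repeated near the starts and by peak. A peak within 250 bp of a start was present in both libraries at 48 of 67 histone genes (71.6%, exact interval 59.3 to 82.0), against 58.4% of all protein-coding genes. By this measure the median percentile was 73.6 in replicate 1 and 93.5 in replicate 2 at histone genes, against 87.9 and 96.97 at all protein-coding genes. The histone promoters drew on 64 distinct peaks in replicate 1 and 83 in replicate 2, of which 24 in each library lay near more than 1 member. With overlapping promoter windows joined, 31 of 38 joined windows held a peak in both libraries, a count without a share over all genes beside it. The strongest peak was centred upstream of the start at 35 of 50 genes in replicate 1 and at 40 of 50 in replicate 2. Over all protein-coding genes with a peak it was upstream at 66.4% and 72.3%. Median midpoints were at -49.5 and -77.5 bases from the annotated start at histone genes, against -26.5 and -33.5 at all protein-coding genes. Midpoints lay within 250 bases of it at 74% and 76% of these histone genes, against 85.8% and 85.9%. By distance from the RefSeq start, bases in peaks were most frequent at -55 and -45 at histone promoters, against -35 and -45 at all protein-coding promoters. The shift thus depends on the start used, and a peak between a head-to-head pair can count as upstream of both genes.

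**Figure D2:**
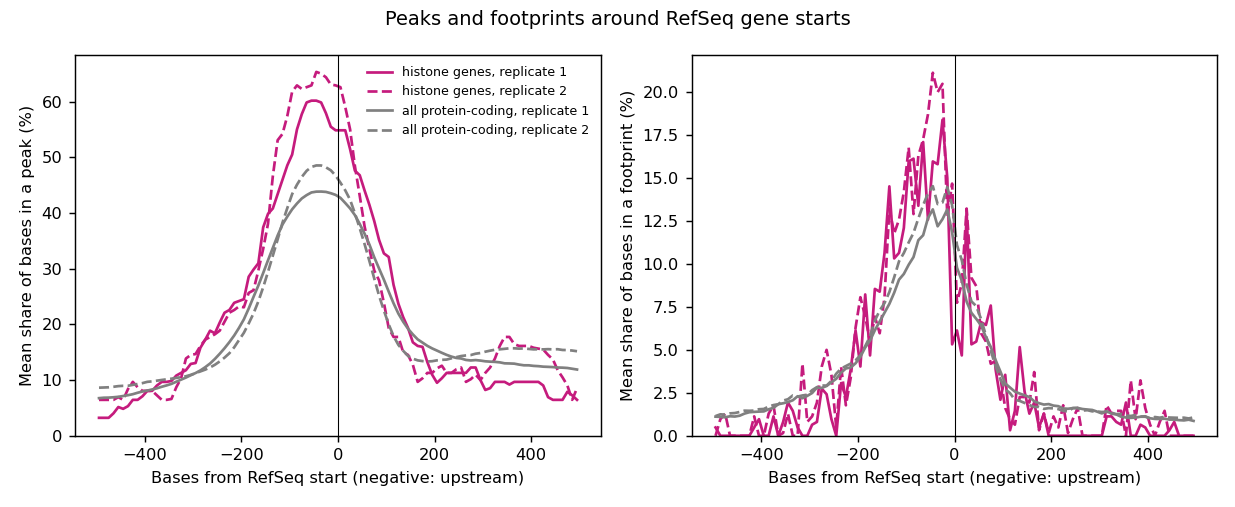
Mean share of bases in a peak (left) and in a footprint (right), in percent, by distance from the RefSeq start in bins of 10 bases, for the 62 histone promoters with a RefSeq entry and for 21045 protein-coding promoters. Solid lines are replicate 1 and dashed lines replicate 2. The histone promoters reach 60.2% and 65.3% in peaks, and all protein-coding promoters 43.8% and 48.5%.

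Counts were taken along the clusters, whose exact intervals overlap. Hist2 had a peak in both libraries at 9 of 10 genes and Hist1 at 39 of 54. Within Hist1, split where neighbouring members lie over 100 kb apart, the counts were 11 of 18 in group 1, 5 of 5 in group 2, 23 of 29 in group 3 and 0 of 2 in group 4. In the 235 kb of group 3, 31 of the 44 peaks of replicate 1 and 38 of the 54 of replicate 2 lay within 1 kb of a histone start. Hist2 held 13 peaks in replicate 1, all near a member, and 25 in replicate 2, of which 18 were. Group 4 consists of Hist1h2ba and Hist1h2aa, which encode testis-specific forms of H2B and H2A, and its 3.08 kb span held no peak in either library.

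**Figure D3:**
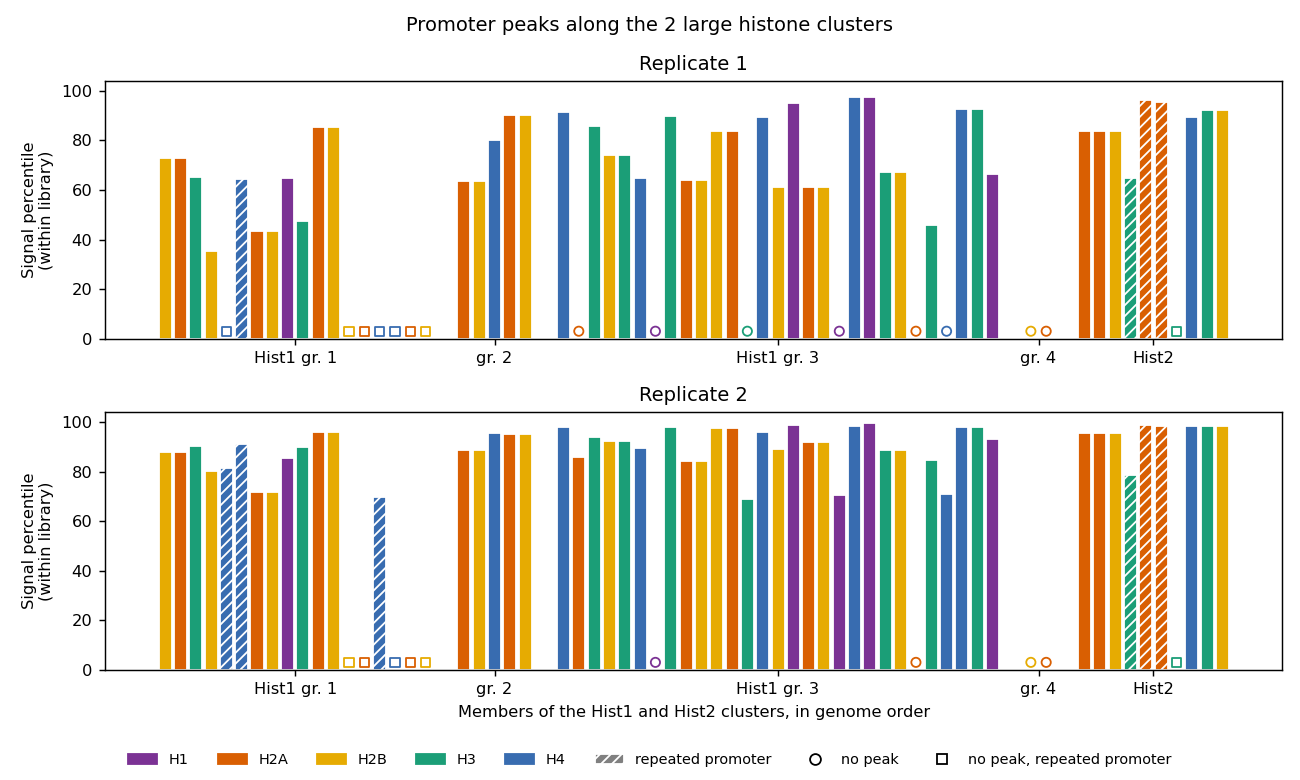
Signal percentile of the strongest promoter peak (vertical axis) for the members of Hist1 and Hist2 in genome order, coloured by class, replicate 1 above and replicate 2 below. Hatched bars and open squares are members with a repeated promoter sequence, and open circles and squares members without a peak. The run of squares at the end of group 1 is the repeated stretch from Hist1h2bq to Hist1h2br, where replicate 1 has no bar and replicate 2 has 1, at Hist1h4m.

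Repeated sequence and germ-line genes figured among the members without a peak in both libraries. In 12 histone genes fewer than 80% of the 32-base words in the promoter window occur once in the genome, and reads from such sequence are hard to place. Of these 12, 4 (33.3%) had a peak in both libraries, against 18.0% of all protein-coding genes with such repeated windows. Of the 55 histone genes with unique windows 46 (83.6%) had one, against 65.9% of all protein-coding genes with unique windows. The repeated members without a peak in either library were Hist1h2bq, Hist1h2ao, Hist1h2ap and Hist1h2br, in which no word is unique, Hist1h4n (5.58% unique) and Hist2h3c1 (11.9%). How reads that match several places were handled is not given in the sources used here, and its part in these calls was not tested. Hist2h2aa2, also at 11.9%, had a peak in both libraries. Over 1 kb either side of the start, 40.6% of its words are unique, against 19.4% for Hist2h3c1. Hist2h3c2, at 11.9% and at 20.4% over 1 kb, also had a peak in both libraries, of 1.02 in replicate 1 and 0.869 in replicate 2.

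The unique members without a peak in either library were 4: Hist1h1d, described above, Hist1h2ab, and the testis pair Hist1h2ba and Hist1h2aa. Hist1h2ab is an H2A gene in the midst of group 3, between Hist1h2bb, with signals of 1.08 and 1.60, and Hist1h3b, with 0.679 and 1.19. The unique members with a peak in replicate 2 alone were Hist3h2ba (0.729), Hist1h2af (1.27), Hist1h3d (0.5997), Hist1h1t (0.633) and Hist1h4b (0.644). All these values lie below the median histone signal of 2.79 in that library.

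The remaining members of the small clusters were accessible in both libraries. In Hist2, Hist2h2ac and Hist2h2be share a peak of 1.98 in replicate 1 and 3.80 in replicate 2, which also lies within 1 kb of Hist2h2ab. It overlaps the stretch between their starts, and in replicate 1 its midpoint was 19.5 bases inside Hist2h2ac. Within 250 bp of its own start Hist2h2ab had 1.13 and 2.81. Hist2h4 had 2.76 and 8.24 within 1 kb, and 2.76 and 4.37 within 250 bp, while Hist2h3c2 had 1.02 and 0.869 and was the weakest of the 9 accessible genes of the cluster. Hist3h2a had 1.93 and 3.31, in peaks centred 415.5 and 325.5 bases past its start, and Hist4h4 had 2.59 and 2.61.

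Most head-to-head pairs had at least 1 peak between their starts. There were 13 pairs of members with diverging starts under 1 kb apart, of which 12 paired H2A with H2B at 176 to 306 bases and 1 paired Hist1h2bh with Hist1h3f at 660 bases. In 9 of the 13 a peak lay between the starts in both libraries, counted by overlap with that stretch, so such a peak can reach into a gene. No share over divergent pairs of other genes was taken, so this count has no background. The strongest peak between the starts had a signal of 2.89 in replicate 1 and 3.48 in replicate 2 for Hist1h2ag and Hist1h2bj, 2.15 and 4.37 for Hist1h2an and Hist1h2bp, 1.98 and 3.80 for Hist2h2ac and Hist2h2be, and 1.96 and 6.24 for Hist1h2bf and Hist1h2ad. The order of these pairs thus differed between the libraries. No peak lay between the starts of Hist1h2bq and Hist1h2ao or of Hist1h2ap and Hist1h2br, both repeated, nor of the testis pair. The same held for Hist1h2ae and Hist1h2bg, which are unique. There the nearest strong peak was centred 182.5 and 169.5 bases inside Hist1h2ae, at 1.00 in replicate 1 and 1.14 in replicate 2.

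Footprints followed the peaks. A footprint lay within 1 kb of a start in both libraries at 48 of 67 histone genes (71.6%), against 59.2% of all protein-coding genes. Genes with a peak in both libraries had a median of 5 footprints per promoter in each library at histone genes, against 6 in each at all protein-coding genes. In the 45 accessible histone promoters with a RefSeq entry, footprints covered 13.2% of the bases in replicate 1 and 14.0% in replicate 2, in windows of 250 bases before to 50 after the start. Of the footprint bases of replicate 1, 57.5% were also in a footprint of replicate 2, and 54.3% of those of replicate 2 were in one of replicate 1. Footprint bases were therefore only partly repeated, and this count does not separate shifted edges from footprints called in 1 library only.

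The promoter classes differed in their sequence. Motifs were sought on both strands of the same windows, from 250 bases before to 50 after the start, in 62 of the 67 members, and Hist1h3f, Hist1h2bc, Hist1h3a, Hist2h2be and Hist2h4 had no entry. The CCAAT box, CCAAT, bound by NF-Y, was present in 85.5% of the histone promoters, against 38.5% of all protein-coding promoters. It was found in all 6 H1, 18 H2A, 16 H2B and 10 H3 promoters but in 3 of 12 H4 promoters. The TATA box letters, TATAAA, were present in 56.5% of histone promoters, against 12.7% of all, at a median position of -39 from the start. The octamer ATTTGCAT, the site of the POU factor Oct-1, was present in 22.6% of histone promoters, against 1.68% of all, and these were 7 H2A and 7 H2B promoters. The E2F letters TTTNGCGC, the site of factors that act at S-phase entry, were present in 22.6%, against 1.76%, again in 7 H2A and 7 H2B promoters. Since head-to-head neighbours share sequence, the 14 octamers stand at 11 places and the 14 E2F matches at 8.

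Linker and H4 promoters held letters of their own. The H1 box AAACACA, an element of H1 promoters, was present in 5 of 6 H1 promoters and in 14.5% of all histone promoters, against 6.19% of all protein-coding promoters. The core letters GGTCCG of the H4 element, the region bound by the factor HINFP, were present in 11 of 12 H4 promoters and in 2 of the other 50, against 10.6% of all protein-coding promoters. The GC box letters GGGCGG were present in 38.7% of histone promoters, against 46.7% of all. The CRE letters TGACGTCA were present in 6.45%, against 2.26%. Motifs stood in accessible and in other members. CCAAT was present in 40 of 45 accessible promoters and in 13 of the 17 others, and TATAAA in 26 of 45 and 9 of 17. The octamer was in 11 of 45 and 3 of 17, the GC box in 19 of 45 and 5 of 17, and the CRE in 4 of 45 and 0 of 17. Shares were larger among the others for the E2F letters, in 9 of 45 and 5 of 17, and the H1 box, in 4 of 45 and 5 of 17. The same held for the H4 core, in 9 of 45 and 4 of 17.

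**Figure D4:**
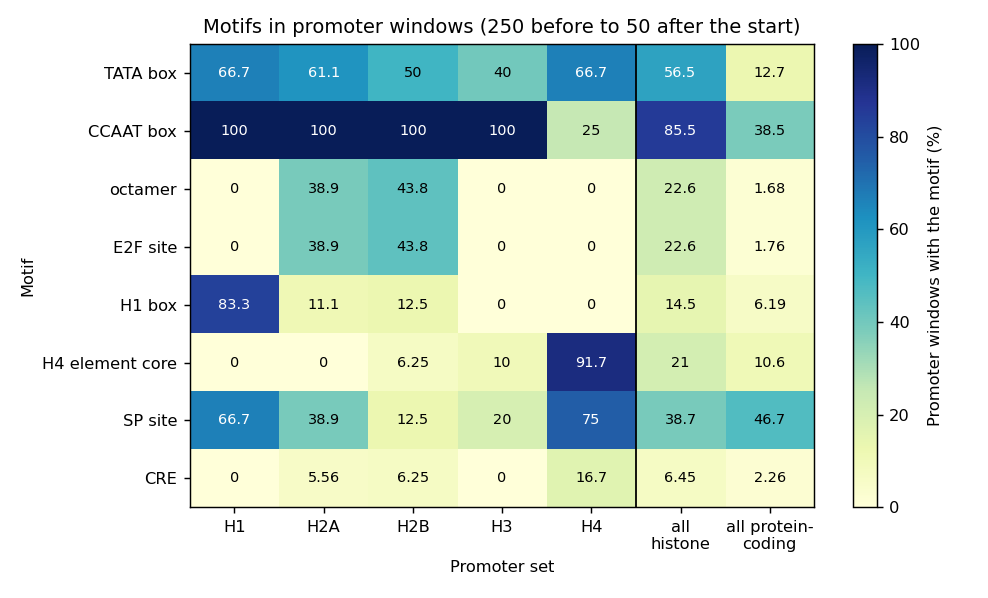
Share of promoter windows, from 250 bases before to 50 after the RefSeq start, that hold each motif on either strand, in percent, for the 5 histone classes, all 62 histone promoters and all 21045 protein-coding promoters. The H4 element core fills 91.7% of the H4 windows and the H1 box 83.3% of the H1 windows, and CCAAT is in all windows of the other 4 classes but in 25.0% of the H4 windows.

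The place of the H4 core varied among the H4 promoters. The 60 bases before the RefSeq start follow for the 9 H4 genes chosen because it lies wholly within them, 5′ to 3′ in the direction of the gene and from the same RefSeq table. Here capitals mark the core letters GGTCCG.
Hist1h4j: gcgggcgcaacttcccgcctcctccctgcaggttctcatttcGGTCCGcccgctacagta
Hist1h4k: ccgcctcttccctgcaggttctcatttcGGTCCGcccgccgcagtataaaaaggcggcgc
Hist1h4m: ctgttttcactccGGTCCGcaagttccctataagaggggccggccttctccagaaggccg
Hist1h4n: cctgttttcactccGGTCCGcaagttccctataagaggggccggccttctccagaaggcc
Hist1h4i: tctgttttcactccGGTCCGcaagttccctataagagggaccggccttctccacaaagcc
Hist1h4f: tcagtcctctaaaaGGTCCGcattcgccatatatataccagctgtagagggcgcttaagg
Hist1h4d: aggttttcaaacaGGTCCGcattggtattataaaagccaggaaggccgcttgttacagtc
Hist1h4c: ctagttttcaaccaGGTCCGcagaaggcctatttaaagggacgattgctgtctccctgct
Hist4h4: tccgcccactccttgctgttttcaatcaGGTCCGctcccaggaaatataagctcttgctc
They lie at chr13:21734974-21735033, plus strand for Hist1h4j, chr13:21750554-21750613, minus strand for Hist1h4k, chr13:21811686-21811745, plus strand for Hist1h4m, chr13:21832198-21832257, minus strand for Hist1h4n and chr13:22041363-22041422, minus strand for Hist1h4i. The others lie at chr13:23551669-23551728, minus strand for Hist1h4f, chr13:23581508-23581567, plus strand for Hist1h4d, chr13:23698459-23698518, minus strand for Hist1h4c and chr6:136804432-136804491, minus strand for Hist4h4. With the RefSeq start as position 0, the core begins at -46 or -47 in 6 of the 9, at -32 in Hist1h4k and Hist4h4 and at -18 in Hist1h4j. In the other H4 genes that hold it, Hist1h4h and Hist1h4b, it begins at position -5 and at position 6, across or past the RefSeq start. The core reads in the direction of the gene in all 11 H4 promoters.

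Among the 8 motifs, the H4 core had the largest share of bases inside footprints in replicate 2, and in replicate 1 the largest after the CRE. Over the 44 histone windows that themselves overlap a peak in both libraries, 64.8% of the core's bases lay in a footprint in replicate 1 and 74.1% in replicate 2. Over the 10700 such windows of all protein-coding genes the shares were 14.2% and 16.3%, and over all bases of the 44 histone windows 13.5% and 14.7%. The core lies where footprints are most frequent, and at the same distances from the start 20.2% and 26.8% of the bases of all 44 histone windows were in a footprint. These shares rest on 9 sites, of which 7 are H4 promoters. In Hist1h4c and Hist1h4i the whole core was inside a footprint in both libraries, in Hist4h4 6 bases were in replicate 1 and 3 in replicate 2, and in Hist1h4f none was in either. The capitals of the Hist1h4c promoter above run through this core and the TATTTAA stretch after it.

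The other motifs follow. CCAAT bases were in footprints for 22.4% in replicate 1 and 31.0% in replicate 2 in histone promoters, against 40.8% and 47.4% in all protein-coding promoters. The octamer, at 9 sites, was covered for 5.56% in each library, against 10.1% and 7.12%. E2F letters, at 9 sites, were covered for 22.2% and 41.7%, against 36.6% and 37.1%, and TATA letters for 24.1% and 19.1%, against 14.8% and 16.1%. GC box letters, at 32 sites, were covered for 22.4% and 24.0%, against 37.4% and 39.5%. The H1 box, at 5 sites, was covered for 20% in each library, against 5.66% and 7.11%. Shares of all histone window bases at the same distances were 17.6% and 18.4% for CCAAT and 18.6% and 19.5% for the octamer. They were 11.4% and 13.8% for the E2F letters and 19.6% and 22.2% for the CRE. For the GC box they were 15.8% and 16.9%, and for the H1 box 16.9% and 19.7%. For the TATA letters they were 16.2% and 19.2%, so in replicate 2 TATA bases did not exceed them. The 5 CRE matches were wholly covered in replicate 1 and 3 of the 5 in replicate 2, against 78.3% and 74.2% of CRE bases in all protein-coding promoters. They lie in Hist1h4a, which holds 2, Hist1h4h, and the shared promoter of Hist1h2ag and Hist1h2bj, where 1 place counts for both genes. In Hist1h4a and Hist1h4h all 8 bases of each CRE were in a footprint in both libraries.

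**Figure D5:**
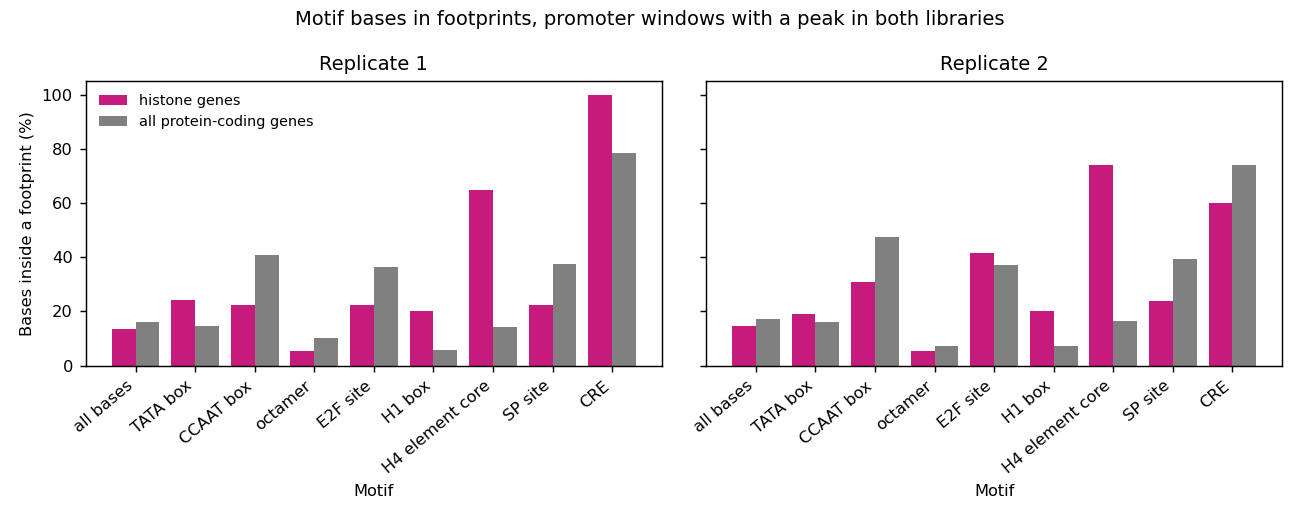
Share of motif bases inside a deposited footprint, in percent, in promoter windows that overlap a peak in both libraries, for histone genes (left bar of each pair, 44 windows) and all protein-coding genes (right bar, 10700 windows), replicate 1 left and replicate 2 right. The first pair is the share over all bases. The H4 element core stands at 64.8% and 74.1% in histone genes, against 14.2% and 16.3% in all protein-coding genes.

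At the other end of the gene, the stem-loop was recorded to check that the members are of the replication-dependent kind. In the 150 bases after the stop codon, 49 of 67 members held one of 2 forms of the 16-base stem-loop letters, shown here with the loop of 4 bases in capitals.
H1, H2A, H2B and H3 genes: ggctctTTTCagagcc
H4 genes: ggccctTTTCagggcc
The first form was found in 5 H1, 15 H2A, 13 H2B and 8 H3 genes, and the second in 8 H4 genes, each 24 to 59 bases after the stop codon. The 18 others, Hist1h1t among them, hold neither of these letter strings, which says nothing of other forms. Of the 49 with it 36 had a promoter peak in both libraries, and of the 18 without it 14 had. The annotation runs over 200 bases past the stem-loop in 17 of the 49, and 12 of these 17 were accessible, against 24 of the 32 that end by it.

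Other genes near them and with them in the pathway were set beside the members. In the Hist1 span 39 of the 54 histone genes (72.2%) had an accessible promoter, against 6 of the 49 other protein-coding genes there (12.2%). Of the 49, 36 are vomeronasal receptor genes of the Vmn1r family, none with a peak in both. The 6 were Zfp322a, at percentiles 96.7 and 98.9, Abt1, Hfe, Zfp184, Btn2a2 and Btn1a1. Among the genes of high CpG ratio in the span, 3 of 4 had a peak in both libraries.

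Replication-independent histone genes, which serve cells outside S phase, are listed for comparison. Of 14, 11 were accessible in both libraries (78.6%), against 60.7% of all protein-coding genes, with median percentiles of 96.1 in replicate 1 and 98.9 in replicate 2. They ranged widely. H2afv and H2afz, which encode H2A.Z, were at 99.8 and 98.9 in replicate 1 and 99.9 and 99.8 in replicate 2, and H2afx at 99.7 and 99.9. H3f3b, an H3.3 gene, was at 99.3 and 99.8. At the low end, H2afy2, a macroH2A gene, was at 28.2 and 81.9, and H1fnt, a testis H1 gene, at 54.8 and 78.2. The 3 with a peak in replicate 2 alone were the germ-line forms H1foo and Hils1 and the linker histone gene H1fx. The trans-acting machinery was open as well: all 21 matched genes of histone transcription and 3′ end processing, all 10 histone chaperone genes and all 22 S-phase genes were accessible in both libraries, against 60.7% of all protein-coding genes and 91.9% of those with a high CpG ratio. Their median percentiles in replicate 1 were 93.8, 93.9 and 92.4, all above the 81.8 of the clustered histone genes. CpG content and the number of starts were not matched between these lists and the clustered genes.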

How the data were processed

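Per the labels, the positions of both libraries are on the mouse build mm10. The authors deposited, for each library, 2 lists of narrow peaks with a signal value per peak, a footprint list whose p-value column held 0.01 in every row, and cut-rate segments whose p-value column was taken as a false discovery rate, held here at 0.05 or below. Not given in the sources used here are the aligner, the peak caller, their versions and the treatment of multiply matching reads, and the depth is unknown. Mapping F1 reads to mm10 could lower signal on the CAST/EiJ allele, which was not tested.

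Genes and starts came from GENCODE release M21, with chromosomes Y and M left out, and promoter sequence from RefSeq (GRCm38.p6). A promoter peak is a peak of the longer list within 1 kb of any annotated start, sharing at least 1 bp. Percentiles are ranks of the deposited signal within a library. Promoter CpG was counted 500 bp either side of the 5′ end. Intervals of shares are exact (Clopper-Pearson, 95%) and reflect counting error alone. With 1 group of 2 libraries, no test was run. The functions were tested on simulated data. The tools were matplotlib 3.10.9, pysam 0.24.0, scipy 1.17.1, pandas 2.3.3, numpy 2.4.6, numba 0.67.0 and Python 3.11.15. Members, gene lists and motifs were chosen with earlier results of these data known. Named genes are the 3 best-ranked per class, all of Hist2, Hist3 and Hist4, members without a peak in both libraries, the testis forms and up to 4 per list, and others named were chosen after their values were seen.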

Additional observations from a re-analysis of the deposited data

How the results depend on the processing

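The alternatives changed the share of accessible histone promoters (74.6%) within 65.7% to 85.1%. It was 82.1% with a 2 kb window, against 62.2% of all protein-coding genes, 65.7% with the shorter peak lists, against 54.1%, and 67.2% with peaks at or above the list's median signal, against 54.0%. It was 83.6% in unique promoter windows, an alternative chosen after seeing the data. With 1 library left out it ranged between 74.6% and 85.1%, and the footprint share between 71.6% and 83.6%, against 59.9% and 68.7% of all protein-coding genes. The median percentile in replicate 1 (81.8) was 73.6 with a 500 bp window, against 87.7 for all protein-coding genes. It was 64.2 among promoter peaks, against 73.5, and 72.7 with the shorter list, against 82.5. With genes without a peak at 0 it was 65.2, against 63.6 for all protein-coding genes, which turns the order round in that library. In replicate 2 (92.5 over the 57 genes with a peak there) it was 72.4 among promoter peaks, against 82.2. With genes without a peak at 0 it was 90.0 there, against 91.3, so the order did not turn. With equal numbers of peaks in both libraries, H2A genes had 66.7% and H2B genes 72.2%. With 1 library left out, H1 ranged between 66.7% and 83.3%, H2A between 72.2% and 77.8%, H2B between 77.8% and 83.3%, H3 between 83.3% and 91.7%, H4 between 69.2% and 92.3%, Hist1 between 72.2% and 83.3% and Hist3 between 50% and 100%. With windows from 500 bases before the start, the GC box was in 54.8% of histone promoters, against 51.2% of all, the reverse of the main order. No paired analysis was possible because there is 1 group. Causes were not tested. Unknown depth limits every absent peak to not detected at this depth.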

Other observations

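The 3 annotated histone pseudogenes with a Hist symbol also had a peak within 1 kb of their start in both libraries. The strongest had a signal of 1.93 in replicate 1 and 3.31 in replicate 2 at Hist3h2bb-ps, 0.556 and 0.925 at Hist1h2aj, and 0.913 and 0.790 at Hist1h2al. The first is the peak of Hist3h2a and the second that of Hist1h2bm, while Hist1h2al lies on chromosome 13 at 51202727 to 51203065, outside the Hist1 span.

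The annotated start coincides with the coding start in 11 histone genes, precedes it by 1 to 200 bases in 53 and by more than 200 in 3. Read by the start codon, 76.1% of the histone genes had a peak within 1 kb in both libraries. The share over all protein-coding genes was not taken by this measure.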
